A study of Mus musculus with 6 samples.

Results

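The red cell membrane skeleton is described here through 9 genes: Sptb, Ank1, Epb41, Epb42, Slc4a1, Add2, Tmod1, Dmtn and Tspo2. They were chosen by gene symbol, and the platform annotation gave a probe set to 8 of the 9, with 21 probe sets among the 45101 of the array. Epb41 was not matched and is not analysed here. The samples were whole spleens of 6 Balb/c mice, 6 to 8 weeks old and labelled female. Of these, 3 were untreated controls and 3 had received PFOS (perfluorooctane sulfonate, a fluorinated surfactant that persists in tissue) by gavage, at a daily dose of 10 mg per kg over 3 weeks. Each spleen was measured on 1 Affymetrix Mouse430_2 array, and the deposited values are log2 values from RMA, which corrects background, makes the arrays alike in distribution and summarises the probes of each probe set. The label of sex goes against the data: on 6 of the 6 arrays every Xist probe set lay at or below 5.86 while a Y-linked probe set reached at least 9.62.

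The membrane skeleton is a protein mesh on the inner face of the red cell membrane that lets the cell deform and spring back. Long spectrin filaments form its sides, short actin filaments form its corners, and the mesh hangs from the membrane at a pair of sites. The ankyrin site joins spectrin to the anion exchanger Slc4a1, and the junctional complex at the actin corners holds adducin, tropomodulin, dematin and protein 4.1R. Red cell precursors make these proteins while they mature, and in the mouse the spleen is a site of red cell production throughout adult life. Inherited loss of spectrin, ankyrin, Slc4a1 or Epb42 gives fragile, rounded cells and anaemia.

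Since the measured members moved together in the arrays (values follow), the DNA before their start sites is shown for 3 of them. RefSeq windows (GRCm38.p6) of 250 bases before the start were found for 6 of the 9 genes. Capitals mark AGATAA or TGATAA, the core of GATA factor sites, and CCNCNCCC, the core of KLF sites, searched on both strands, with overlapping matches joined. The first is Epb42 (chr2:121036878-121037127, minus strand), the only one of the 5 measured members with a window that has a GATA core in it. Tspo2 (chr17:48451502-48451751, minus strand) and Sptb (chr12:76710548-76710797, minus strand) show KLF cores without a GATA core. Each line runs 5′ to 3′ in the direction of the gene and ends at the base before the start.
Epb42: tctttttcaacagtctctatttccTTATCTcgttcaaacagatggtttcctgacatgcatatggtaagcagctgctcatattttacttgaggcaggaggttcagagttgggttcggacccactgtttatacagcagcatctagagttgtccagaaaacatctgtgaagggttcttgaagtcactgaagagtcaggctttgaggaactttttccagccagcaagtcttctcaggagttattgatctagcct
Tspo2: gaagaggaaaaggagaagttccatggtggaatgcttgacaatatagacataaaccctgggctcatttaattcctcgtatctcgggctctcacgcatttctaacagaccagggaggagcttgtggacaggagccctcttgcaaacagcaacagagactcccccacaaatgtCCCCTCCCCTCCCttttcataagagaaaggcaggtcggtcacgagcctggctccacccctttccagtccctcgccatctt
Sptb: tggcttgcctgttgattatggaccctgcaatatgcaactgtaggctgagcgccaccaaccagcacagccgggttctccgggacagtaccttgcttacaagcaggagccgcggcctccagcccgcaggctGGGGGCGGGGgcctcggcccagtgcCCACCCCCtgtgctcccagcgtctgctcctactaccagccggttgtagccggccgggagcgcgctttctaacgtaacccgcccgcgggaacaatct
In the Epb42 window, AGATAA lies on the opposite strand, 226 to 221 bases before the start, and CCNCNCCC is not found. Tspo2 holds 2 matches of CCNCNCCC, Sptb 3, Add2 2 and Tmod1 4. Among all 32851 windows of the same length, 16.60% hold AGATAA or TGATAA and 45.93% hold CCNCNCCC. A match describes letters only, and these shares show how often such letters occur in any window.

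The arrays within a group were nearly alike, with correlations over 13101 genes of 0.9985 to 0.9991, against 0.9690 to 0.9698 between groups. Array medians lay between 6.16 and 6.18. The bacterial transcripts added before labelling (dap, lys, phe and thr, 24 probe sets) averaged 6.64 to 6.65 in control and 6.09 to 6.14 in PFOS, a difference of -0.53. The actin control probe sets at the 3′ end exceeded those at the 5′ end by 2.03 to 2.04 in control and 2.20 to 2.22 in PFOS. The same measure for Gapdh went the other way, from 1.73 to 1.75 in control to 1.68 to 1.70 in PFOS. Markers of red cell precursors, led by Klf1, Ermap, Hemgn and Rhag, fell in 8 of the 8 cases that passed the filter on low values, with a list mean of 11.26 to 11.27 in control and 9.69 to 9.70 in PFOS. That filter was a mean of at least 5.62 over the 6 arrays. It left out Hba-a1, and Hbb-b1 and Ahsp are not analysed here. Other lists moved in the same arrays. Beside the counts of each list in this paragraph, 26.0% of the 13101 genes tested were called lower and 40.6% higher. Hepatocyte markers (Alb, Apoa1, Apoh and Serpina1c first by p) fell in 15 of 15 cases, with a list mean of 8.61 to 8.62 in control and 5.54 to 5.60 in PFOS, and 9 of the 15 ended under the floor. Mitosis markers (Ccnb2, Ccna2, Mki67, Ube2c) fell in 11 of 11, from 10.56 to 10.57 down to 9.05 to 9.07. Neutrophil markers (Camp, Ngp, Mpo, Ltf) fell in 7 of 8. T cell (Bcl11b, Cd3d, Cd3g, Il7r), B cell (Cd79a, Fcer2a, Blk, Cr2) and red pulp macrophage markers (Vcam1, Spic, Mertk, C1qc) rose in 9 of 9, 8 of 9 and 10 of 12. The part of these shifts in the results below was not tested.

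All 8 measured members of the list fell after PFOS, by the probe set that stands for each gene. With 1 probe set for each gene, 8 of 8 members were lower at an adjusted p under 0.05, where 26.0% of the 13101 genes tested were called lower. Of the members, 5 fell at least 2-fold, against 2.92% of all genes. The median change was -1.26 on the log2 scale, or 2.40-fold lower, beside a median of 0.051 over all genes. In 8 of 8 genes the highest PFOS array lay under the lowest control array, as it did for 27.8% of all genes. Changes are RMA log2 differences, PFOS minus control, with limma's standard error (SE) and its adjusted p over all genes, n = 3 arrays in each group throughout. In whole spleen, fewer red cell precursors and less RNA in each of them cannot be told apart.

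**Figure D1:**
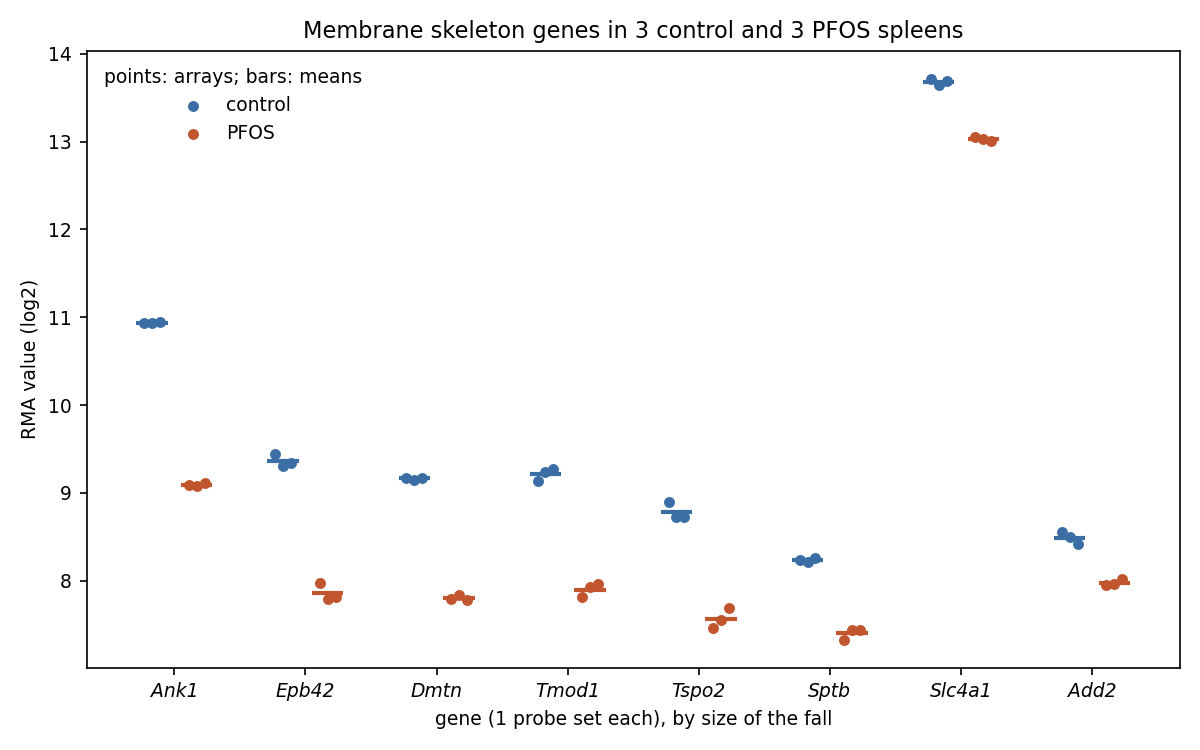
RMA log2 values (vertical axis) of 8 membrane skeleton genes, 1 probe set each, ordered by the size of the fall; points are the 3 control and 3 PFOS arrays and bars are group means. In all 8 genes the PFOS points lie below the control points, from a gap in means of 1.85 for Ank1 to 0.51 for Add2.

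At the ankyrin site, Ank1 had the largest fall among the main probe sets of all members. It encodes erythroid ankyrin, the adaptor that ties beta spectrin to Slc4a1. Its main probe set read 10.93, 10.94 and 10.95 in the controls and 9.09, 9.08 and 9.11 in PFOS. The 3 values of each group lie within a few hundredths of each other, and the groups are far apart. The change was -1.85 ± 0.02 (SE; limma adjusted p = 5.93e-09), which leaves 27.8% of the control signal. Among the 13101 genes Ank1 ranked 63 from the lowest change. A second Ank1 probe set, 1425677_a_at, read 7.97, 8.05 and 7.99 in control and 6.52, 6.68 and 6.59 in PFOS, a change of -1.41. The other probe sets of the gene moved little. Probe set 1443291_at changed by -0.21, and 1452512_a_at, whose mean of 3.57 is under the floor, by -0.09 with overlapping groups (limma adjusted p = 0.211 over all probe sets). With the mean over all 4 probe sets of Ank1, the change was -0.89.

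Epb42 encodes a transglutaminase-like protein without enzyme activity that braces the contact of ankyrin and Slc4a1. It read 9.44, 9.31 and 9.34 in control and 7.98, 7.79 and 7.82 in PFOS. All PFOS values lie more than 1 unit under the lowest control. The change was -1.50 ± 0.06 (limma adjusted p = 5.78e-07), or 2.84-fold lower. Its other probe set, designed on the same transcript record, read 6.48, 6.53 and 6.64 against 6.05, 6.09 and 5.94. That is a smaller fall of 0.52 on the log2 scale from a lower level, again without overlap.

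Slc4a1, the chloride and bicarbonate exchanger that also anchors the skeleton, had the highest signals of the set, and its probe sets did not fall by the same amount. The probe set with the highest mean, 1434502_x_at, read 13.72, 13.64 and 13.69 in control and 13.05, 13.03 and 13.00 in PFOS, a change of -0.65 ± 0.03 (limma adjusted p = 1.15e-06). Affymetrix marks a probe set with _x_ when some of its probes also match other sequences. Probe set 1416464_at, without that mark, read 13.87, 13.85 and 13.87 against 12.54, 12.51 and 12.53. Its change of -1.34 is a 2.53-fold fall, and the difference of -0.69 between the changes of the pair is larger than the spread of the arrays (exact two-sided permutation p = 0.1, the smallest possible with 3 against 3). The remaining probe set, 1431743_a_at, lies under the floor at a mean of 4.63 and changed by -0.41.

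Sptb, beta spectrin of the red cell, was the only member with probe sets that moved in opposite directions. The main probe set, 1450556_at, read 8.24, 8.21 and 8.25 in control and 7.33, 7.44 and 7.45 in PFOS. These groups are separate, and the change was -0.83 ± 0.04 (limma adjusted p = 1.16e-06), leaving 56.1% of the control signal. Probe set 1455226_at read 6.44, 6.36 and 6.36 in control and 6.55, 6.59 and 6.66 in PFOS. It rose by 0.22 ± 0.04 (limma adjusted p = 0.00384 over all probe sets), and its PFOS arrays lay above the controls, where 30.2% of all probe sets were called higher. With the mean over both, Sptb changed by -0.31.

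At the junctional complex, Tmod1, Dmtn and Add2 all fell. Tmod1 encodes tropomodulin, which caps the slow-growing end of the actin filaments. Its only probe set read 9.13, 9.24 and 9.27 in control and 7.81, 7.92 and 7.96 in PFOS, with no overlap. The change was -1.31 ± 0.05 (limma adjusted p = 6.01e-07), or 2.49-fold lower.

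Dmtn encodes dematin, which bundles actin filaments at the same corners. Its main probe set read 9.17, 9.15 and 9.17 in control and 7.79, 7.84 and 7.79 in PFOS. The spread within a group is small beside the change, which was -1.36 ± 0.03 (limma adjusted p = 1.96e-08). A second probe set, 1438189_s_at, changed by -1.05, from a control mean of 6.58 to a PFOS mean of 5.53. The latter lies under the floor, so this probe set passed the filter only through its control arrays. The remaining one, 1445439_at, changed by only -0.28. When probe sets marked _s_, _x_ or _a_ are left out, 1445439_at stands for the gene, and the change of Dmtn is -0.28 (limma adjusted p = 9.44e-05; its adjusted p lies under 0.05 in all the other settings tried).

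Add2 encodes beta adducin, which recruits spectrin to the fast-growing end of actin. The probe set with the highest mean, 1450442_at, read 8.55, 8.50 and 8.42 in control and 7.95, 7.97 and 8.02 in PFOS. Its change of -0.51 ± 0.04 (limma adjusted p = 2.58e-05) was the smallest among the members. The gene has 5 probe sets, and their changes ran from -2.07 to -0.44. Probe set 1435287_at read 8.45, 8.38 and 8.38 in control, near the level of the main one, and 6.39, 6.30 and 6.30 in PFOS. That change of -2.07 ± 0.04 (limma adjusted p = 5.29e-08 over all probe sets), or 4.20-fold, was the largest of all 21 probe sets. The remaining ones changed by -1.50 (1431076_at), -0.83 (1421975_a_at) and -0.44 (1451914_a_at, whose mean lies under the floor).

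Tspo2 is a red cell relative of the mitochondrial translocator protein and is tied to cholesterol handling in maturing precursors. It is no part of the mesh itself. Its only probe set read 8.90, 8.72 and 8.73 in control and 7.46, 7.56 and 7.70 in PFOS, so that the groups do not meet although the arrays spread more than for the other genes. The change was -1.21 ± 0.07 (limma adjusted p = 4.99e-06), leaving 43.1% of the control signal.

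Over all 21 probe sets, tested with no filter, 19 were lower, 1 was higher and 1 was not called, where 19.3% of the 45037 probe sets tested were called lower. With arrays scaled on the labelling spikes, 13 of the 21 were lower. A share over all probe sets was not computed for that scaling, under which 6.05% of the genes tested were lower. With the values as deposited, a fall of at least 2-fold was seen in 10 of the 21, against 1.50% of all probe sets. In 19 of the 21 the PFOS arrays lay below the controls without overlap, as in 22.9% of all. The filter on low values was passed by 18 probe sets, of which 17 fell. Among these, 1438189_s_at of Dmtn passed only through its control arrays. The median over the 21 was -0.83, beside 0.040 over all probe sets. Across the 21, a higher control level went with a larger fall (Spearman's rho of control mean and change -0.682). That is a description, since probe sets of a gene share its transcripts and all share the arrays. The control mean is also subtracted in the change, which by itself pushes rho to negative values.

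**Figure D2:**
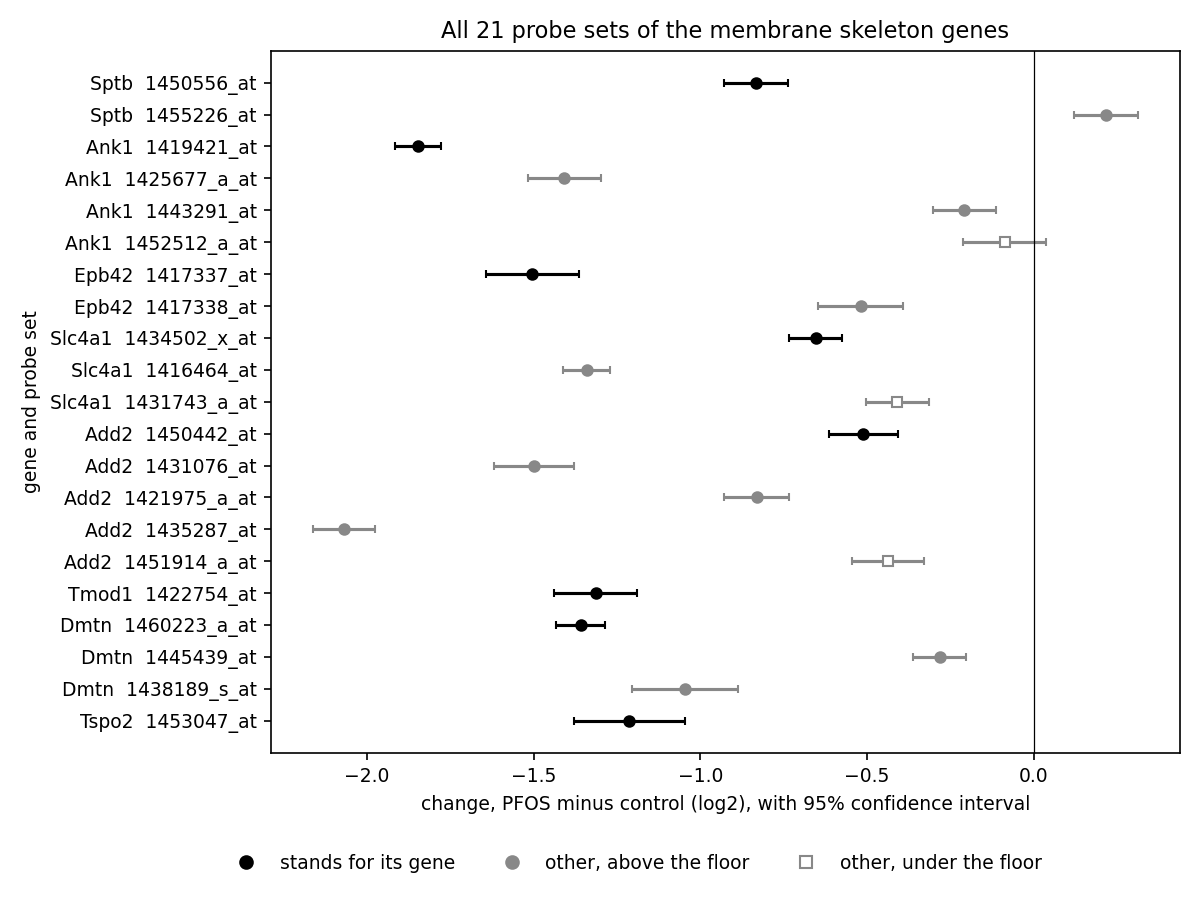
Change in RMA value (PFOS minus control, log2, horizontal axis) of each of the 21 probe sets, grouped by gene, with 95% confidence intervals from limma. Black points stand for their gene, grey points are other probe sets, and open squares have a mean under 5.62. Add2 spans -2.07 to -0.44, and 1 Sptb probe set lies to the right of 0, at 0.22.

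By the main probe sets, the falls ran in the order Ank1, Epb42, Dmtn, Tmod1, Tspo2, Sptb, Slc4a1 and Add2. Some neighbours in that order differed by more than their spread. Ank1 fell by 0.34 more than Epb42, Tspo2 by 0.38 more than Sptb, Sptb by 0.18 more than Slc4a1, and Slc4a1 by 0.14 more than Add2, with per-array differences that did not overlap between groups (exact two-sided permutation p = 0.1 each, the smallest possible). Among Epb42, Dmtn, Tmod1 and Tspo2 the differences of 0.14, 0.045 and 0.10 between neighbours overlapped (exact permutation p = 0.3, 0.6 and 0.4), while Epb42 fell by 0.29 more than Tspo2 without overlap (exact permutation p = 0.1). Of all 28 pairs of members, 23 did not overlap, and none can pass a threshold of 0.05 with 3 against 3 (smallest exact permutation p adjusted over the pairs = 0.122). Each pair was ordered by these same values, so the sign of its difference was fixed beforehand. A share over pairs of other genes was not computed. The order belongs to these probe sets and not to the genes: taking 1435287_at for Add2 or 1416464_at for Slc4a1 would move both up.

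The other proteins of the mesh were called lower or higher about as often as genes at large. Of 12 skeleton partners listed, 11 were measured, of which 4 fell and 5 rose, where 26.0% of all genes were lower and 40.6% higher. Their median change was -0.0047. Stom, which encodes the red cell membrane protein stomatin, had the largest fall at -1.02 ± 0.03 (limma adjusted p = 5.88e-08). Of its 6 probe sets, 4 were lower and 2 not called. Mpp1, a scaffold protein of the junctional complex, fell by 0.46, and Add1, the alpha adducin that pairs with Add2, by 0.34. Actb, which encodes beta actin and is the remaining gene counted as lower, changed by -0.07 (limma adjusted p = 0.023). Tested over all probe sets, that probe set was not called, and the other one of Actb was higher, at 0.17. The gamma adducin Add3 (0.42 ± 0.03) and the widely expressed tropomodulin Tmod3 (0.36 ± 0.03) rose by their main probe sets. So did the actin capping subunits Capza1 (0.33) and Capzb (0.18), and gamma actin, Actg1 (0.13). Of the 4 Capzb probe sets 1 was higher and 3 not called, while 3 of 4 were higher for Add3 and 4 of 5 for Tmod3. The tropomyosins Tpm1 (-0.10) and Tpm3 (-0.0047) were not called by their main probe sets, while 2 of 4 probe sets of Tpm1 were lower, and of 5 for Tpm3 1 was lower and 1 higher. With arrays scaled on the labelling spikes, 1 of these 11 genes was called lower, where 6.05% of all genes were.

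Most membrane proteins that sit beside or on the skeleton fell. Of 18 measured membrane partners, 15 were lower and 10 of these fell at least 2-fold. Of all genes, 26.0% were lower and 2.92% fell at least 2-fold. The median over the 18 was -1.15. The largest falls among them were those of Cldn13, a claudin of red cell precursors (-2.20 ± 0.03), and Kel, the Kell blood group protease (-2.18 ± 0.02; limma adjusted p = 4.17e-09). Rhag and Rhd of the Rh complex, which meets the skeleton through ankyrin, changed by -1.70 and -1.92. Icam4, an adhesion molecule of the same complex, changed by -1.92, and Ermap, the Scianna blood group protein, by -1.80. Gypc, the glycophorin that binds protein 4.1R, changed by -1.23, and the water channel Aqp1 by -1.62. Cd47, the marker of self on red cells and many other cells, fell by 0.24 at its main probe set. Of its 5 probe sets 4 were lower, with changes down to -0.86. Xk, the partner of Kel (-0.10), and the glucose transporter Slc2a1 (-0.02) were not called by their main probe sets, though the other of the 2 probe sets of Xk was lower, at -0.24. The calcium pump Atp2b1 rose by 0.27 while another of its 3 probe sets was lower.

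By their main probe sets, most relatives of the members by gene family went the other way or hardly moved. Over all 92 probe sets of the listed relatives, 33 were higher and 12 lower. Of all probe sets, 30.2% were called higher and 19.3% lower. Of 22 measured relatives, 13 were higher, where 40.6% of all genes were called higher, 2 were lower and 7 were not called, with a median of 0.089. None of them changed 2-fold. That direction depends on the scaling. With arrays scaled to equal ribosomal protein genes, 9 of the 22 were higher, beside 3535 of all 13101 genes. With arrays scaled to equal labelling spikes, 22 of 22 were higher, beside 11912 of all 13101 genes. The spectrins of other cells, Sptan1 and Sptbn1, rose by 0.37 ± 0.02 and 0.27 ± 0.02, while the main probe set of Sptb fell. Of the 6 Sptbn1 probe sets, 3 were higher and 3 not called. Ank3 changed by 0.080 at its main probe set (called higher), but of its 6 probe sets 1 was higher, 1 lower, at -0.18, and 4 not called. Ank2 (0.054) was not called, while Ank1 fell. Ablim1, which shares the headpiece of dematin, rose by 0.45 ± 0.03 at its main probe set. Of its 4 probe sets 1 was higher and 3 not called, with changes down to -0.03. Tgm1, an active transglutaminase related to Epb42, rose by 0.37. The exchanger Slc4a2 rose by 0.19. The genes called lower were Add1, which red cells use as well, and Tspo, the translocator protein of many tissues, at -0.24, with 3 of 3 probe sets lower in each.

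The difference between member and relative was tested within arrays, which no scaling of whole arrays can alter. In 17 of 17 pairs the member changed to lower values than its relative without overlap of the groups (exact two-sided permutation p = 0.1 in each, the smallest possible). The pairs are not independent, since members recur in them, and a share over pairs of other genes was not computed. The gap was widest for Ank1 against Ank3, at -1.93, and for Ank1 against Ank2, at -1.90. It was -1.67 for Tmod1 against Tmod3, -1.20 for Sptb against Sptan1 and -0.98 for Tspo2 against Tspo. The narrowest was Add2 against Add1, at -0.17, by the main probe sets. All these gaps rest on main probe sets. The other Sptb probe set rose by 0.22, beside a rise of 0.37 for Sptan1.

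**Figure D3:**
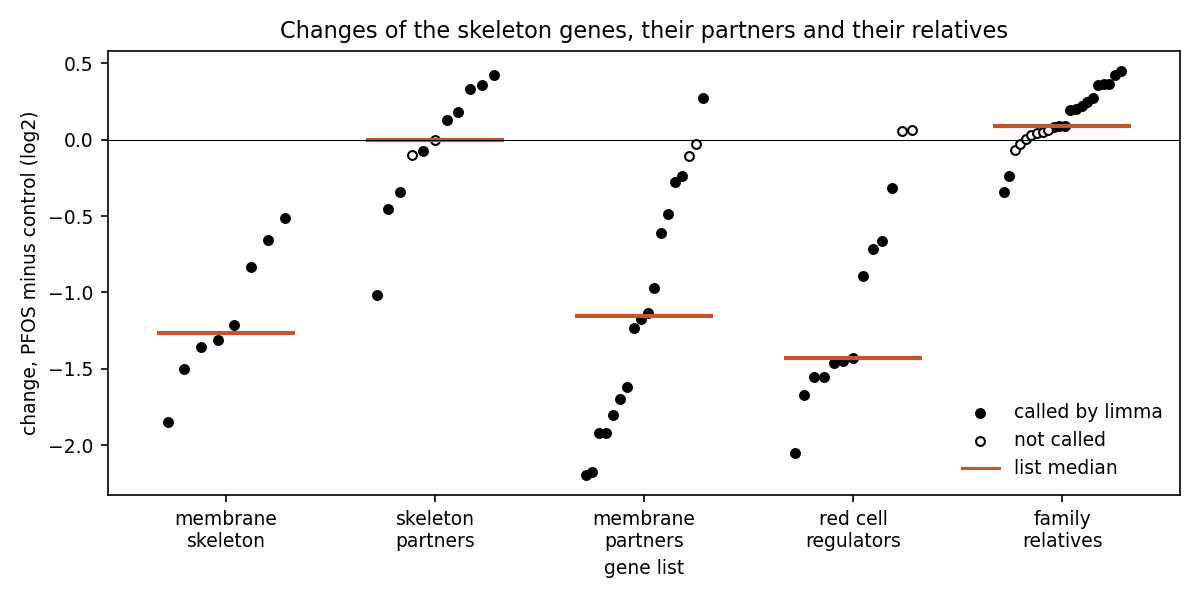
Change (PFOS minus control, log2, vertical axis) of each measured gene in the membrane skeleton and 4 further lists; filled points were called by limma at an adjusted p under 0.05, open points were not, and lines are list medians. The skeleton, membrane partner and regulator lists have medians of -1.26, -1.15 and -1.43, and the skeleton partners and family relatives lie around 0. Add1, Add3 and Tmod3 are in both of the latter lists.

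The transcription factors that drive red cell genes, with the erythropoietin receptor, were lower in 11 of 13 cases, and 7 of these fell at least 2-fold. The shares over all genes, 26.0% lower, 2.92% lower by at least 2-fold and 40.6% higher, stand beside these and the next counts. The median of the regulators was -1.43. Klf1, an activator of many membrane skeleton genes, changed by -2.05 ± 0.02 (limma adjusted p = 4.17e-09), Tal1 by -1.56, Nfe2 by -1.56 and the receptor Epor by -1.43. Ldb1 and Lyl1, which other blood cells also use, were not called (0.059 and 0.062). Of 10 measured late red cell genes, 7 were lower and 3 not called, with a median of -0.46. Hemgn (-1.67), Xpo7 (-0.85), Fech (-0.53) and Slc25a37 (-0.64) came first by p, and Bpgm, an enzyme that sets the oxygen affinity of mature red cells, changed by -0.018. Among progenitor genes 2 of 8 were lower and 3 higher, Myb changing by -0.54, Eng by -0.13, Flt3 by 0.39 and Meis1 by 0.41. Platelet genes were lower in 3 of 10 and higher in 5, which like the progenitor counts lies near the shares over all genes, with Ppbp at 0.29, Clec1b at 0.21, Itga2b at 0.25 and Gp9 at -0.19. Skeletal muscle, which has its own short ankyrin from Ank1, was represented by 7 markers, of which 3 were lower (Mylpf by 0.44, Acta1 by 0.23 and Casq1 by 0.12) and Tnni2 higher by 0.15, at control list means of 6.63 to 6.67.

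The 5 genes whose centred values over the 6 arrays lay closest to the mean profile of the 8 members were Ezh2, Gmnn, Oaf, Cdt1 and Diaph3, at Euclidean distances of 0.039 to 0.052 on the log2 scale. Their changes ran from -1.16 for Gmnn to -1.14 for Diaph3. The members themselves lay at 0.19 (Tspo2) to 0.85 (Ank1) from their mean. With groups so far apart, this likeness mostly reflects the size of the change.

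The size of the falls depends on how the arrays are brought to 1 scale. Scaling on ribosomal protein genes moved the median of the members to -1.34. Scaling on the labelling spikes, which were lower in PFOS, moved it to -0.79, and moved the median of all genes from 0.051 to 0.53. Under that scaling 7 of 8 members were still called lower, where 6.05% of all genes were. Slc4a1 changed by -0.18 and Sptb by -0.36, and Add2 was not called, at -0.035 (limma adjusted p = 0.415; 0.552 at a change of 0.024 when the tryptophan spikes, at background level, were left out). Relative to the median of all genes, the members' median was -1.31 as deposited. Both scalings shift all genes of an array alike, so they cannot alter that value, and it is no test of them. Of all calls, 39.0% were lower as deposited, 57.5% with ribosomal scaling and 6.23% with spike scaling.

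**Figure D4:**
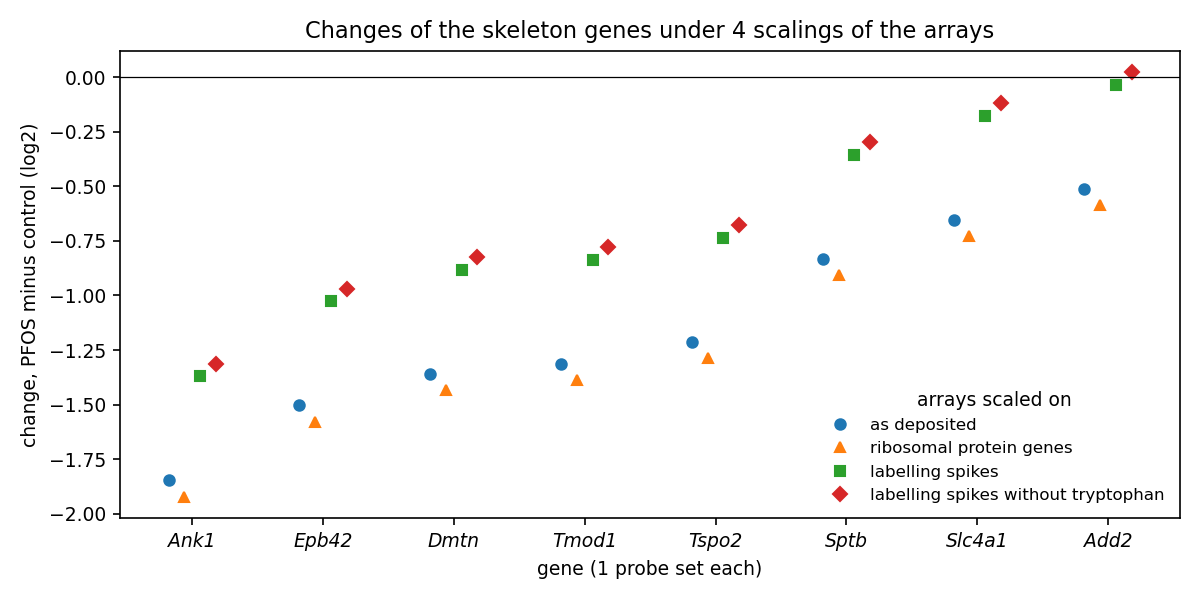
Change (PFOS minus control, log2, vertical axis) of the 8 membrane skeleton genes, 1 probe set each, with arrays as deposited, scaled on ribosomal protein genes, on the labelling spikes, and on those without the tryptophan ones. Every gene keeps a negative change under the first 3, from -1.37 for Ank1 to -0.035 for Add2 on the labelling spikes, and Add2 sits at 0.024 under the last.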

How the data were processed

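Total RNA of each spleen was hybridized to 1 array. The deposited values are log2 values that the authors made with RMA, per the submitters' processing notes; the sources used here give no version, and detection calls were not used here. The members and lists were chosen with earlier results of these data known, as were the settings. Some lists share genes, so their counts are not independent. Add1, Add3 and Tmod3 are skeleton partners and relatives. Among the precursor markers, Ermap, Rhag and Rhd are also membrane partners, Klf1 and Epor regulators, and Hemgn and Alas2 late red cell genes. Probe sets were named by the platform annotation: 34945 of 45101 had 1 symbol, 932 had several and 9160 had none, and 64 were controls. For the gene test, probe sets with a mean under the 40th percentile (5.62) were left out, and the one with the highest mean stood for its gene, giving 13101 genes. All 45037 non-control probe sets were tested as well. Tests used limma 3.58.1 (lmFit, eBayes) under R 4.3.3; p-values are two-sided and adjusted by Benjamini-Hochberg, with calls at 0.05. Named genes were all members, the 4 smallest p of each list, genes against their list's direction and the members' relatives. Other genes of the partner, relative and regulator lists are given after their values were seen. Per the labels the arrays are biological replicates; p-values measure only their spread, which may be technical. The number of arrays limits the precision. The fit was tested on simulated data. Alternatives were the replicate block, filter, scaling, variance prior, array weights, probe set choice, threshold and leaving out each array.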

Additional observations from a re-analysis of the deposited data

How the results depend on the processing

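Of 152 values of single members under other settings, 150 stayed lower and called; the others are Add2 with scaling on the labelling spikes (-0.035) and on those without the tryptophan ones (0.024; this setting was added with the data in view). The median change of the members was -1.23 with quantile normalization, -1.34 with ribosomal scaling, -0.79 and -0.73 with the spike scalings, -1.23 with array weights and -0.95 with the mean over probe sets, and ran from -1.31 to -1.21 when 1 array was left out. At least 2-fold were 5 members, 10 member probe sets, 1 skeleton partner, 7 regulators, and 0 relatives in either direction. With both spike scalings, 1 skeleton partner and 0 relatives were lower and 22 relatives higher. Of all 13101 genes, 792 were lower and 11912 higher with the labelling spikes. Without the tryptophan ones, 723 were lower and 12065 higher. Without _s_at, _x_at and _a_at probe sets, fewer were tested: 12 of 13 member probe sets and 2 of 7 skeleton partners were lower. With the replicate block, 8 members and 19 member probe sets were lower, and no call of a member changed. Replicate numbers were not used as pairs: the correlation of deviations of same-numbered arrays was 0.324, 0.138 and 0.097, and control array 3 correlated better with PFOS array 2 (0.128) than with its own number. The cause of these shifts was not tested, other than where fewer probe sets were tested.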
